A study of Arabidopsis thaliana with 26 samples.

Results

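The transcripts of 5 Arabidopsis genes that act in mitosis and cytokinesis were followed in T87 suspension cells given plant hormones. The genes are AUR1 (AT4G32830) and AUR2 (AT2G25880), which encode Aurora protein kinases, KINESIN-12B (AT3G23670), which encodes a motor protein of the phragmoplast, and TOPII (AT3G23890) and 3xHMG-box2 (AT4G23800), which encode chromosome proteins. They were chosen by name, with earlier results of these data known. Each was matched through its locus identifier to 1 probe set. Thus 5 of the 13286 genes named on the array and 5 of its 22746 probe sets are described. T87 is an Arabidopsis suspension line that grows as dividing cells. The control culture received 0.6% ethanol. The hormones were abscisic acid (ABA) at 25 µM, salicylic acid (SA) at 300 µM and jasmonate given as its methyl ester (JA below) at 100 µM, each alone, and ABA was also combined with SA or with JA. RNA was taken after 3 h or 24 h, which gives 12 groups. ABA alone had 3 arrays at either time and the other groups had 2, for 26 arrays in all. The comparisons the design implies are each hormone against ethanol at the same time, each combination against its single hormones, and 24 h against 3 h.

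Aurora kinases phosphorylate spindle and chromosome proteins during cell division, and in Arabidopsis AUR1 and AUR2 form a closely related pair that is associated with the mitotic spindle and the forming cell plate. Plant cells divide their cytoplasm with the phragmoplast, an array of microtubules that carries vesicles to the cell plate, and KINESIN-12B and its partner KINESIN-12A bind its midline. Topoisomerase II passes DNA strands through each other and so untangles sister chromosomes, and 3xHMG-box proteins are DNA-binding proteins that associate with condensed chromosomes in mitosis. Transcripts of this kind are usually made around the G2 to M transition, so that their level in a culture depends on how many cells are dividing. In RNA of a whole culture, fewer dividing cells and less RNA per cell cannot be told apart. ABA is a stress hormone that is known to restrain growth, SA acts in defence against pathogens, and jasmonates act in defence and wounding.

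Values are log2 signals, so that a difference of 1 unit is a doubling. The 4 combined arrays at 3 h carry titles that name one combination, while their other labels name the other, and they were grouped by title. JRG21, a jasmonate-responsive gene, had a mean of 11.57 under JA, 10.87 on the arrays titled ABA+JA, 3.00 on those titled ABA+SA and 2.99 in the control at 3 h. UGT76B1, a glucosyltransferase gene linked to SA, had a mean of 10.83 under SA, 11.74 on the arrays titled ABA+SA, 8.47 on those titled ABA+JA and 5.60 in the control. JRG21 thus followed the titles, while UGT76B1 was above the control on both pairs of titled arrays. Grouping by the other labels exchanged the values of the 2 combinations at 3 h and changed no call of the 5 genes. For the other genes described below, calls and counts of the combinations against the control or ABA alone at 3 h would be exchanged as well. LEA4-5, an ABA-responsive gene, was at 10.49 under ABA, 9.51 under ABA+SA and 8.53 under ABA+JA at 3 h against 3.62 in the control, while the 24 h values were 9.47, 6.49 and 4.30 against 3.08. Arrays 2 and 3 of ABA at 3 h differed over all probe sets with an SD of 0.158, against 0.343 to 0.735 for the other pairs of arrays in a group, and were averaged and counted as 1 sample. No marker that defines the T87 line was examined. Nothing in the labels says that arrays of a group came from separate cultures, so the p-values measure the spread between these arrays, and their small number limits the precision.

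In the ethanol controls all 5 genes had higher means at 24 h than at 3 h. At 3 h all 5 means were above the control under ABA alone, and AUR2 rose under every treatment that held ABA. At 24 h all 5 genes fell under ABA, ABA+SA and ABA+JA, by between 3.29-fold (AUR2 under ABA) and 37.3-fold (3xHMG-box2 under ABA+SA), and 3 of them fell under JA alone. SA alone gave no call at either time. A call means an adjusted p under 0.05 in limma, with Benjamini-Hochberg adjustment over all 22746 probe sets of that comparison.

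The number of genes called can be set beside the share of all probe sets called in the same comparison. Because the genes were chosen with earlier results known, this is a description and not a test. From 3 h to 24 h in ethanol, 3 of the 5 genes rose, where 6.74% of all probe sets rose, and 10.3% were called in either direction. The arrays of all 5 genes did not overlap between the times, as was the case for 57.9% of all probe sets. That share is high, so arrays that do not overlap are described below and are not taken as support for a difference. Apart from ABA at 24 h against 3 h (24.2%), the share was not taken for other comparisons. At 3 h, 1 of 5 rose under ABA (5.73% of all probe sets), 1 of 5 under ABA+SA (6.55%) and 1 of 5 under ABA+JA (9.94%), each time AUR2. At 3 h the count was 0 of 5 under SA and 0 of 5 under JA, where 0.136% and 0.343% of all probe sets were called by limma and 741 and 1180 had an unadjusted p under 0.05. At 24 h, 5 of 5 fell under ABA (10.8% of all probe sets), 5 of 5 under ABA+SA (1.93%), 5 of 5 under ABA+JA (5.58%) and 3 of 5 under JA (2.57%). SA at 24 h gave 0 of 5, where 0.352% of all probe sets were called and 537 had an unadjusted p under 0.05. All treatments at 1 time were compared with the same 2 control arrays, so these counts share those arrays.

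**Figure D1:**
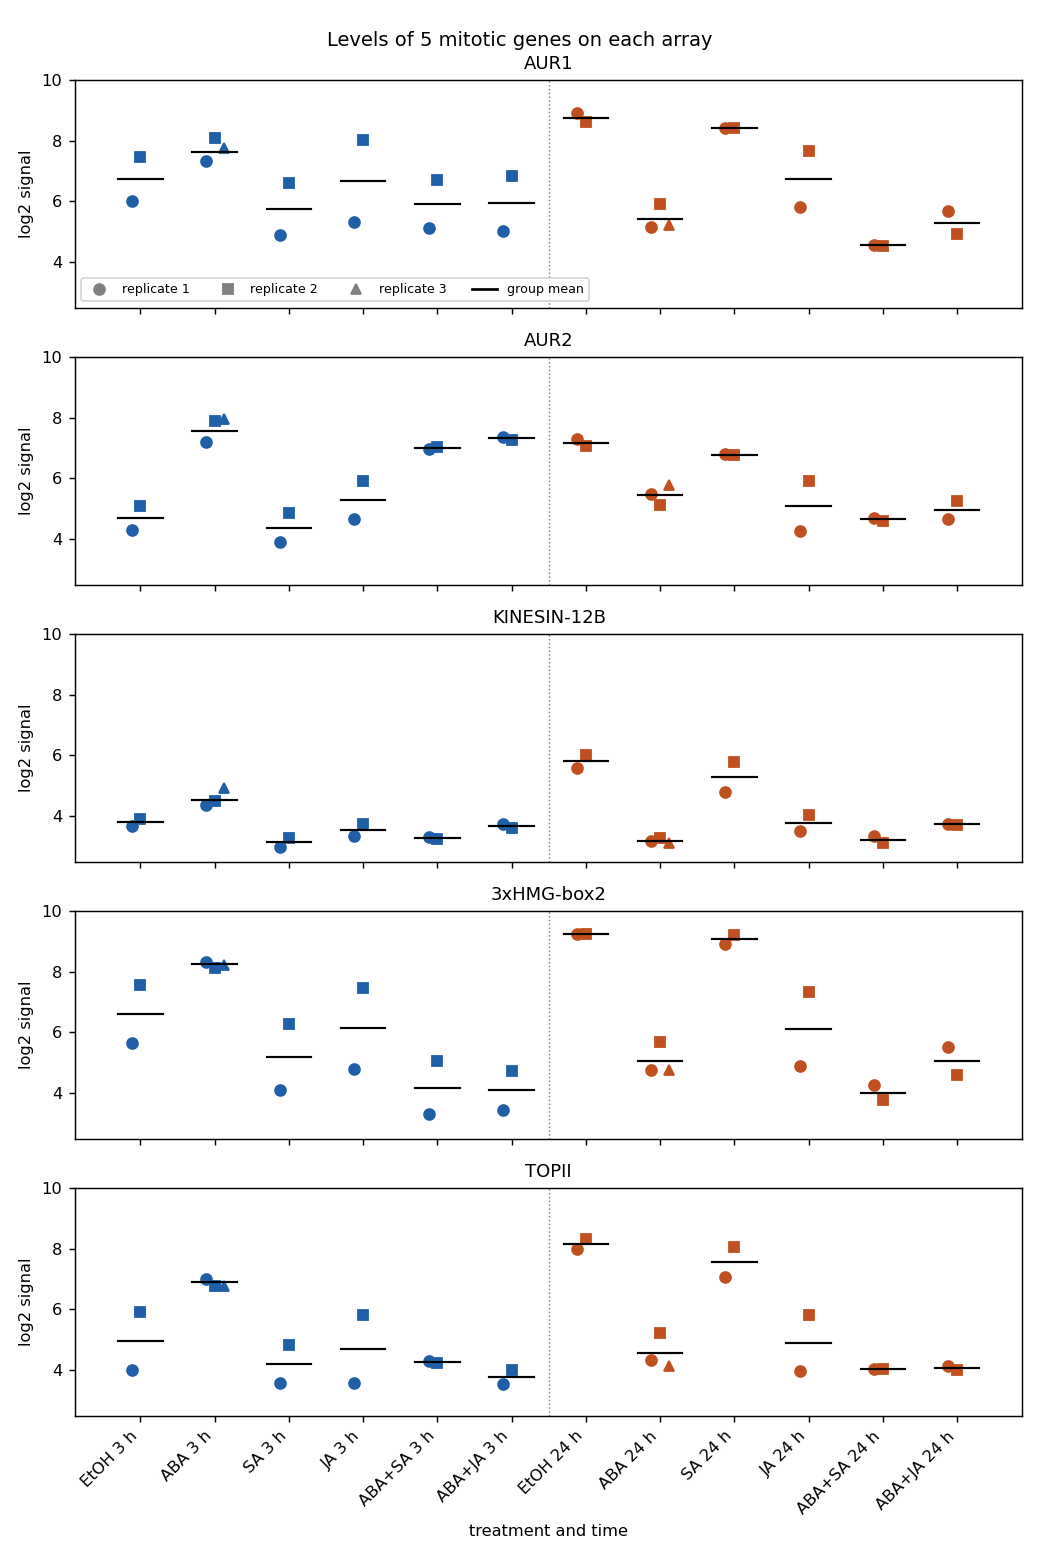
Log2 signal of each gene (panels, same vertical scale) on each of 26 arrays in 12 groups. The horizontal axis gives treatment and time (blue 3 h, orange 24 h), symbols give the replicate, and black bars the group mean, with replicates 2 and 3 of ABA at 3 h averaged first. Control and SA arrays at 24 h are high in all 5 panels, those with ABA at 24 h are low, and AUR2 is high on all arrays with ABA at 3 h.

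AUR1 had signals of 6.0 and 7.46 on the 3 h control arrays and of 8.89 and 8.59 on the 24 h control arrays. The 2 times did not overlap, but the difference of 2.01 ± 0.85 (log2, SE) gave an adjusted p of 0.154 in limma. With ABA alone it read 7.34, 8.08 and 7.75 at 3 h, and after 24 h it read 5.15, 5.90 and 5.21. The 3 h ABA arrays overlapped the control, with a difference of 0.90 ± 0.85 and an adjusted p of 0.522. The 24 h ABA arrays all lay below both controls of that time, and AUR1 fell by 3.32 ± 0.78 (adjusted p = 0.00691).

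Under SA, the 3 h arrays of AUR1 read 4.90 and 6.59 and the 24 h arrays 8.42 and 8.41. Under JA, the 3 h arrays read 5.33 and 8.03 and the 24 h arrays 5.81 and 7.65. The 2 JA arrays stood 2.70 apart at 3 h and 1.84 apart at 24 h, which was the widest gap of any group at each time for this gene. The JA arrays at 24 h still lay below both controls, with a difference of -2.01 ± 0.85 and an adjusted p of 0.199. With the replicate number as a block within each time, a fit chosen after seeing the data, the adjusted p in limma was 0.0326.

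Under ABA+SA, AUR1 read 5.11 and 6.70 on the 3 h arrays and 4.56 and 4.54 on the 24 h arrays. Under ABA+JA the corresponding signals were 5.01 and 6.85, then 5.67 and 4.92. At 3 h both combinations overlapped the control, with differences of -0.82 and -0.80 and adjusted p-values of 0.635 and 0.550. At 24 h neither did, and AUR1 fell by 4.19 ± 0.85 under ABA+SA (18.3-fold, adjusted p = 0.00757) and by 3.45 ± 0.85 under ABA+JA (10.9-fold, adjusted p = 0.0191). These AUR1 calls at 24 h depended on single arrays. Without control array 1 the adjusted p was 0.0591 for ABA, 0.0690 for ABA+SA and 0.109 for ABA+JA. The ABA+SA call was also lost without either of its own arrays (0.0573 and 0.0614), and the ABA+JA call without control array 2 (0.0805) or its own array 2 (0.105).

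AUR2, the second Aurora kinase gene of the pair, read 4.30 and 5.09 in the 3 h controls and 7.28 and 7.07 in the 24 h controls. The times did not overlap, and AUR2 rose by 2.48 ± 0.48 (5.57-fold, adjusted p = 0.00549), a call that was lost without control array 1 of 3 h (2.08, adjusted p = 0.0687). With ABA alone it read 7.20, 7.89 and 7.94 at 3 h, all above the 3 h controls and close to the 24 h controls. AUR2 rose by 2.86 ± 0.48 under ABA at 3 h (7.26-fold, adjusted p = 0.00123), and the call was kept under all 36 alternatives that could be fitted.

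Both combinations gave AUR2 signals in the same range at 3 h. It read 6.96 and 7.02 under ABA+SA and rose by 2.30 ± 0.48 (4.91-fold, adjusted p = 0.0035), which without control array 1 was 1.90 with an adjusted p of 0.0572. It read 7.36 and 7.27 under ABA+JA and rose by 2.62 ± 0.48 (6.13-fold, adjusted p = 0.000915), kept under all 37 alternatives. None of these arrays overlapped the control. SA alone at 3 h gave 3.90 and 4.86 and JA alone 4.65 and 5.92, both overlapping the control, with differences of -0.32 (adjusted p = 1) and 0.59 (adjusted p = 1).

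At 24 h the AUR2 signals under ABA, 5.48, 5.11 and 5.79, lay below both controls. AUR2 fell by 1.72 ± 0.44 (3.29-fold, adjusted p = 0.0127), which was the least negative change of the 5 genes under ABA at that time and was lost without control array 1 (adjusted p = 0.0920) or 2 (0.0634). It read 4.71 and 4.59 under ABA+SA, where it fell by 2.53 ± 0.48 (adjusted p = 0.00518), and 4.65 and 5.25 under ABA+JA, where it fell by 2.22 ± 0.48 (adjusted p = 0.00994). The ABA+SA call was lost without control array 1 (0.0522) or its own array 2 (0.0521), and the ABA+JA call without control array 1 (0.0727), without its own array 1 (0.0747) or with the 2 groups fitted alone (0.0556). Under JA alone AUR2 read 4.27 and 5.91, again below the controls, and fell by 2.09 ± 0.48 (adjusted p = 0.0236). Without JA array 1 the difference was -1.27 with an adjusted p of 0.270, and the call was lost without either control array (0.160 and 0.0822) and with the 2 groups fitted alone (0.352). SA at 24 h gave 6.79 and 6.78, a difference of -0.39 ± 0.48 (adjusted p = 1).

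KINESIN-12B had the lowest mean of the 5 probe sets over the 12 groups, 3.92, which lay at percentile 34.4 of all probe sets. Its 2 samples of a group were at most 0.39 apart at 3 h, once replicates 2 and 3 of ABA were averaged, and up to 0.997 apart at 24 h, under SA. It read 3.69 and 3.91 in the 3 h controls and 5.60 and 6.0 in the 24 h controls. KINESIN-12B rose by 2.0 ± 0.27 between these times (3.99-fold, adjusted p = 0.00053), and the call was kept under all 36 alternatives. With ABA at 3 h it read 4.38, 4.5 and 4.92, above both controls, with a difference of 0.74 ± 0.27 and an adjusted p of 0.0751. With all 26 arrays counted as separate samples this difference was 0.80 with an adjusted p of 0.0324.

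The other 3 h groups of KINESIN-12B had means below the control. Their signals were 3.00 and 3.29 under SA, 3.36 and 3.75 under JA, 3.31 and 3.24 under ABA+SA and 3.74 and 3.59 under ABA+JA. The SA and ABA+SA arrays did not overlap the control. Their differences were -0.66 ± 0.27 (adjusted p = 1) and -0.53 ± 0.27 (adjusted p = 0.227), and neither was called.

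At 24 h KINESIN-12B read 3.17, 3.29 and 3.11 under ABA, and it fell by 2.61 ± 0.24 (6.10-fold, adjusted p = 3.58e-06). It read 3.34 and 3.11 under ABA+SA, a fall by 2.57 ± 0.27 (adjusted p = 3.28e-05), and 3.73 and 3.72 under ABA+JA, a fall by 2.07 ± 0.27 (adjusted p = 0.000229). These 3 calls were kept under all 36 alternatives, and none of the 3 groups overlapped the control. Under JA it read 3.53 and 4.03 and fell by 2.02 ± 0.27 (adjusted p = 0.000529), a call that was lost only with the 2 groups fitted alone (adjusted p = 0.266). SA gave 4.80 and 5.79, overlapping the control, with a difference of -0.51 ± 0.27 (adjusted p = 1).

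TOPII read 4.01 and 5.90 in the 3 h controls and 7.99 and 8.32 in the 24 h controls, with no overlap. Topoisomerase II transcript rose by 3.2 ± 0.72 (9.18-fold, adjusted p = 0.0109), and the call was lost without control array 1 of 3 h (2.25, adjusted p = 0.141) or control array 2 of 24 h (3.03, adjusted p = 0.0810). Under ABA at 3 h TOPII read 7.0, 6.77 and 6.77, above both 3 h controls and below both 24 h controls. The difference from the 3 h control was 1.93 ± 0.72 with an adjusted p of 0.0839, which was 0.0474 with all 26 arrays as separate samples and 0.0477 without control array 2.

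Under SA at 3 h TOPII read 3.56 and 4.83, and under JA 3.57 and 5.82. Under ABA+SA it read 4.29 and 4.24, and under ABA+JA 3.55 and 4.01. Of these 4 groups, the ABA+JA arrays were the ones that did not overlap the control, by a margin that does not show at 2 decimals. The 4 differences ranged from -1.18 to -0.26 and none was called.

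At 24 h TOPII read 4.33, 5.23 and 4.14 under ABA and fell by 3.59 ± 0.66 (12-fold, adjusted p = 0.00129). It read 4.02 and 4.05 under ABA+SA, a fall by 4.12 ± 0.72 (17.4-fold, adjusted p = 0.00277), and 4.12 and 4.01 under ABA+JA, a fall by 4.09 ± 0.72 (17.0-fold, adjusted p = 0.00263). All 3 groups lay more than 2 units below the lower control, and the 3 calls were kept under all 36 alternatives. Under JA the arrays read 3.95 and 5.83, and TOPII fell by 3.26 ± 0.72 (adjusted p = 0.018). Without JA array 1 this difference was -2.33 with an adjusted p of 0.211, and the call was also lost without control array 1 (0.0910) or 2 (0.0973), with array weights (0.0508) and with the 2 groups fitted alone (0.290). SA gave 7.06 and 8.04 and a difference of -0.61 ± 0.72 (adjusted p = 1).

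3xHMG-box2 had the widest range of group means of the 5 genes, 5.22 log2 units, which lay at percentile 98.7 of all probe sets. It read 5.65 and 7.56 in the 3 h controls and 9.22 and 9.25 in the 24 h controls. The times did not overlap, and the difference was 2.63 ± 0.94 with an adjusted p of 0.0873. The adjusted p in limma was 0.0358 with the replicate number as a block and 0.0325 with array weights. Under ABA at 3 h it read 8.31, 8.10 and 8.20, above both controls, with a difference of 1.63 ± 0.94 and an adjusted p of 0.269. Under SA at 3 h it read 4.10 and 6.27 and under JA 4.80 and 7.46, both overlapping the control. Under ABA+SA it read 3.32 and 5.04 and under ABA+JA 3.45 and 4.74, all below both 3 h controls. The differences were -2.42 ± 0.94 (adjusted p = 0.0975) and -2.51 ± 0.94 (adjusted p = 0.0652), and neither was called. The signal of this transcript was below the controls on the combined arrays at 3 h, where AUR2 was high. Calls of these 2 differences came and went with the setting: with array weights the ABA+SA adjusted p was 0.0486, and with the 2 groups fitted alone the ABA+JA adjusted p was 0.0439. In the 5 groups of 3 h other than ABA alone, array 1 lay below array 2 for AUR1 and 3xHMG-box2, and over all probe sets the differences between arrays 1 and 2 had correlations of 0.253 to 0.553 between these groups. With the replicate number as a block in these 5 groups, a fit chosen after seeing the data, 3xHMG-box2 fell by 2.42 ± 0.28 under ABA+SA (adjusted p = 0.000187) and fell by 2.51 ± 0.28 under ABA+JA (adjusted p = 0.000113).

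At 24 h 3xHMG-box2 read 4.76, 5.69 and 4.76 under ABA and fell by 4.17 ± 0.86 (17.9-fold, adjusted p = 0.00299). It read 4.26 and 3.77 under ABA+SA and fell by 5.22 ± 0.94 (37.3-fold, adjusted p = 0.0034). Both calls were kept under all 36 alternatives, and all 5 arrays lay more than 3 units below the controls. It read 5.53 and 4.60 under ABA+JA and fell by 4.17 ± 0.94 (18.0-fold, adjusted p = 0.0118), which was lost without control array 1 (0.0687) or 2 (0.0686) or ABA+JA array 2 (0.0776). Under JA it read 4.90 and 7.34, below the controls, with a difference of -3.12 ± 0.94 and an adjusted p of 0.0720. This difference was called by limma with the replicate number as a block (adjusted p = 0.0313). It was also called with that block within each time (0.0160), a fit chosen after seeing the data. SA gave 8.91 and 9.21 and a difference of -0.17 ± 0.94 (adjusted p = 1).

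**Figure D2:**
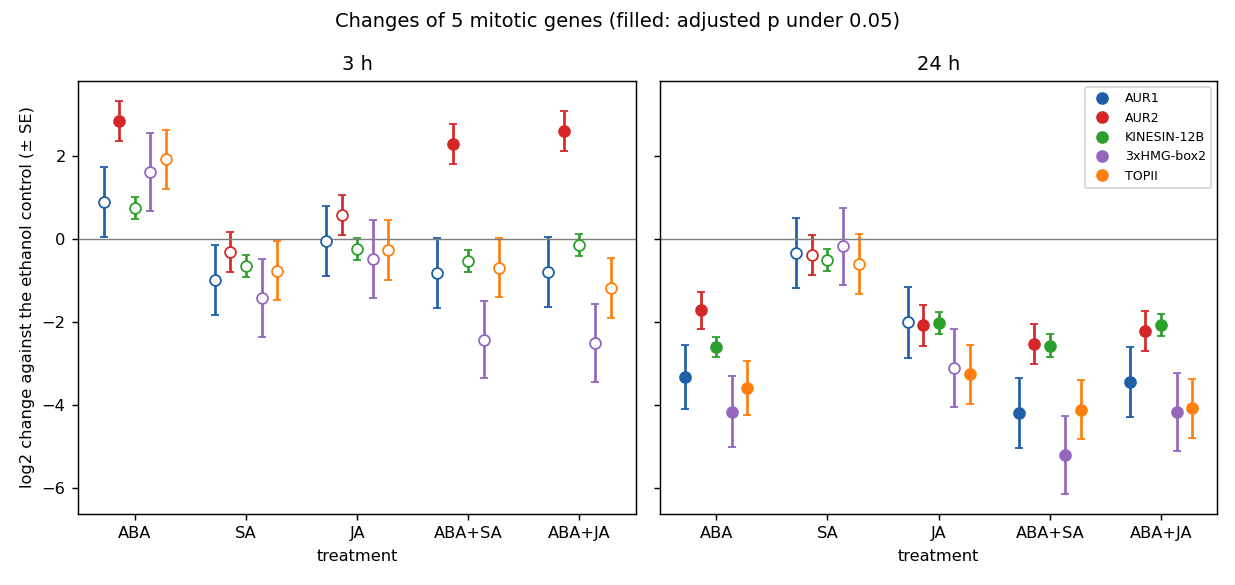
Log2 change of each gene (colours) against the ethanol control of the same time, at 3 h (left) and 24 h (right), with the standard error of the limma fit. The horizontal axis gives the treatment, and filled symbols have an adjusted p under 0.05. AUR2 is the filled symbol above 0 in the 3 treatments with ABA at 3 h, and 18 of the 25 changes at 24 h are filled, all below 0.

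The order of the 12 group means was alike at its top for 4 genes. AUR1, KINESIN-12B, 3xHMG-box2 and TOPII were highest in the 24 h control, then under SA at 24 h, then under ABA at 3 h. AUR2 was instead highest under ABA at 3 h (7.56 ± 0.51, SD, n = 2), followed by ABA+JA at 3 h (7.31 ± 0.06, n = 2), the 24 h control (7.18 ± 0.15, n = 2), ABA+SA at 3 h (6.99 ± 0.04, n = 2) and SA at 24 h (6.78 ± 0.003, n = 2). Then came a gap of 1.33 to ABA at 24 h (5.46 ± 0.34, n = 3). The lowest group was ABA+SA at 24 h for AUR1 (4.55 ± 0.02, n = 2) and 3xHMG-box2 (4.01 ± 0.34, n = 2), SA at 3 h for AUR2 (4.38 ± 0.68, n = 2) and KINESIN-12B (3.14 ± 0.21, n = 2), and ABA+JA at 3 h for TOPII (3.78 ± 0.33, n = 2). In each gene 8 of the 11 pairs of neighbours in this order had overlapping arrays, so most neighbouring places do not differ beyond the spread of the arrays. The ranges of the 5 genes' group means, 2.65 to 5.22 log2 units, lay at percentiles 89.3 to 98.7 of all probe sets, whose median was 1.06.

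Group by group, AUR1, KINESIN-12B, 3xHMG-box2 and TOPII had Pearson correlations of 0.908 to 0.962 with each other over the 12 group means. AUR2 had correlations of 0.406 to 0.584 with them. Over the deviations of the 26 arrays from their group means, AUR1 and 3xHMG-box2 had a correlation of 0.956 and AUR1 and KINESIN-12B one of 0.361. These are descriptions over points that share arrays, and no test was made of them.

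The difference between AUR2 and the other 4 genes can be read within an array, as the log2 change of AUR2 against the control minus the mean log2 change of the others. At 3 h this difference was 1.56 ± 0.42 (SD, n = 2) under ABA, 3.41 ± 0.52 (n = 2) under ABA+SA and 3.77 ± 0.67 (n = 2) under ABA+JA. It was 0.64 ± 0.28 (n = 2) under SA and 0.84 ± 0.52 (n = 2) under JA. The lowest array with ABA (1.27) lay above the highest array without it (1.21, under JA), a margin far smaller than the spread within the groups. At 24 h the means were 1.70 ± 0.73 (n = 3) under ABA, 1.5 ± 0.04 (n = 2) under ABA+SA and 1.22 ± 0.74 (n = 2) under ABA+JA, against 0.01 ± 0.40 (n = 2) under SA and 0.52 ± 0.02 (n = 2) under JA. Arrays with ABA started at 0.70 and those without it ended at 0.53. AUR2 was thus higher relative to the mean of the other 4 genes in every group with ABA. At 24 h its decrease was smaller than their mean decrease. This does not hold against each gene: under ABA+JA at 24 h AUR2 changed by -2.22 and KINESIN-12B by -2.07. The comparison with the mean was chosen after the values were seen, and no test was made of it. Whether the AUR1 and AUR2 probe sets bind each other's transcripts was not tested.

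**Figure D3:**
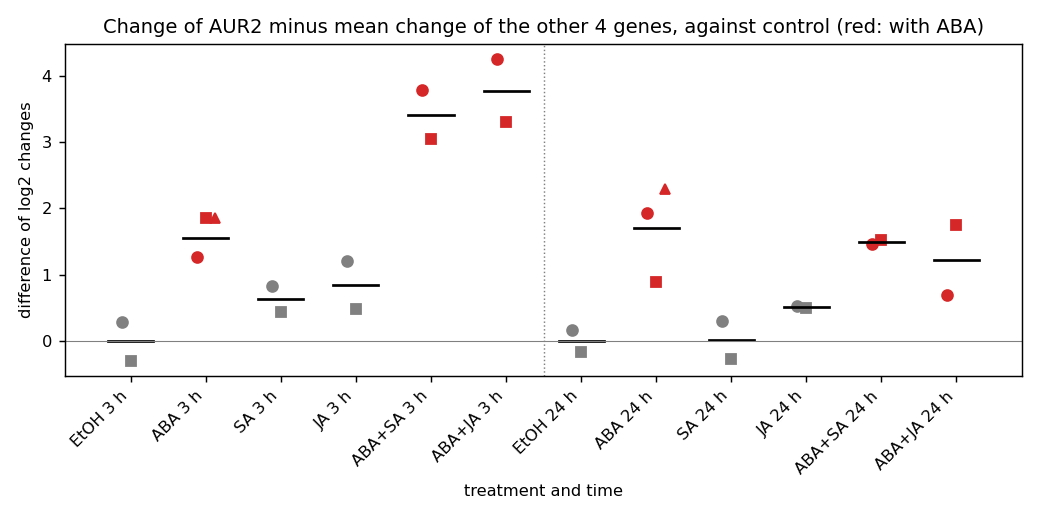
Log2 change of AUR2 minus the mean log2 change of the other 4 genes, each against the ethanol control of the same time, for each array (symbols as replicates 1 to 3) with group means as bars. The horizontal axis gives treatment and time and the dotted line divides 3 h from 24 h. Arrays with ABA (red) lie above those without it (grey) at both times, most clearly for the 2 combinations at 3 h, with means of 3.41 and 3.77.

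Against the single hormones at 3 h, AUR2 was called where the combination was set against SA or JA, and 3 other genes where it was set against ABA. ABA+SA exceeded SA alone in 1 of 5 genes (5.52% of all probe sets), AUR2, which rose by 2.61 ± 0.48 (adjusted p = 0.00182). ABA+JA exceeded JA alone in 1 of 5 (8.84%), again AUR2, which rose by 2.03 ± 0.48 (adjusted p = 0.0067), or by 1.40 with an adjusted p of 0.104 without JA array 1. With the replicate block over the 5 groups of 3 h, 3xHMG-box2 was called too, with -1.003 ± 0.28 for ABA+SA against SA (adjusted p = 0.0309) and -2.04 ± 0.28 for ABA+JA against JA (adjusted p = 0.000516). Compared with ABA alone, 3 of 5 genes were lower under ABA+SA (9.06% of all probe sets) and 3 of 5 under ABA+JA (10.5%).

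The genes that were lower than under ABA alone were KINESIN-12B, 3xHMG-box2 and TOPII in both cases. KINESIN-12B fell by 1.27 ± 0.27 with ABA+SA (adjusted p = 0.00394) and by 0.88 ± 0.27 with ABA+JA (adjusted p = 0.0274). The second of these was lost under 5 alternatives, with adjusted p-values of up to 0.209. 3xHMG-box2 fell by 4.05 ± 0.94 (16.6-fold, adjusted p = 0.00698) and by 4.14 ± 0.94 (17.6-fold, adjusted p = 0.00482). Its calls were lost without ABA array 1 (0.0614) or ABA+SA array 1 (0.0881) in the first case, and with array weights (0.0631) or without ABA+JA array 1 (0.0583) in the second. TOPII fell by 2.62 ± 0.72 (adjusted p = 0.0184) and by 3.11 ± 0.72 (adjusted p = 0.00548). The first was lost with array weights (0.101), without ABA array 1 (0.124) and without ABA+SA array 1 (0.0798) or 2 (0.0888), and the second with array weights (0.0737). AUR2 differed by -0.56 ± 0.48 (95% interval -1.59 to 0.46) and -0.24 ± 0.48 (-1.27 to 0.78), and AUR1 by -1.72 ± 0.85 and -1.70 ± 0.85, with no call. As a test of whether SA or JA altered the ABA effect at 3 h, the interaction gave 0 of 5 calls for each (3.11% and 8.04% of all probe sets called by limma, 4304 and 5173 with an unadjusted p under 0.05). The lowest adjusted p was 0.0992, for TOPII with JA (-2.85 ± 1.02). With the replicate number as a block, limma called the interaction with JA for TOPII (adjusted p = 0.0329) and 3xHMG-box2 (-3.66, 0.0455). Without JA array 1 of 3 h the values were -3.97 for TOPII and -4.99 for 3xHMG-box2.

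At 24 h the genes were low with ABA whichever hormone came with it. ABA+SA lay below SA alone in 5 of 5 genes (1.37% of all probe sets lower). 3xHMG-box2 fell by 5.05 ± 0.94 (adjusted p = 0.00682), AUR1 by 3.87 ± 0.85 (0.0196), TOPII by 3.52 ± 0.72 (0.012), AUR2 by 2.14 ± 0.48 (0.024) and KINESIN-12B by 2.07 ± 0.27 (0.000528). Without any 1 of the 4 arrays of the 2 groups, AUR1 (adjusted p up to 0.152) and AUR2 (up to 0.170) were not called. TOPII was lost without SA array 2 (0.178) or ABA+SA array 1 (0.0941) or 2 (0.0880), 3xHMG-box2 without SA array 2 (0.0860) or ABA+SA array 2 (0.0759), and KINESIN-12B with the 2 groups fitted alone (0.0823). Against ABA alone there were 0 of 5 calls for ABA+SA (6.36% of all probe sets called by limma, 4883 with an unadjusted p under 0.05) and 0 of 5 for ABA+JA (8.81%, 5226). For 3xHMG-box2 the interval of the difference from ABA alone ran from -2.87 to 0.76 with SA and from -1.81 to 1.81 with JA, and for KINESIN-12B from -0.48 to 0.56 with SA and from 0.02 to 1.05 with JA. ABA+JA against JA alone gave 0 of 5 calls, where 0% of all probe sets were called by limma and 684 had an unadjusted p under 0.05.

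The interaction of ABA with JA at 24 h gave 1 of 5 calls (0.87% of all probe sets above 0). For KINESIN-12B the combination lay 2.56 ± 0.36 above the sum of the 2 single effects (adjusted p = 0.00125), kept under all 36 alternatives. ABA and JA each brought this transcript from a mean of 5.80 ± 0.28 (SD, n = 2) in the control to 3.19 ± 0.09 (n = 3) and 3.78 ± 0.36 (n = 2), and together to 3.73 ± 0.002 (n = 2). The other 4 genes had positive interactions of 1.58 to 3.11 with adjusted p-values of 0.170 to 0.465. The lowest group mean of KINESIN-12B lay at percentile 20.7 of all probe sets, and the part of low signal in this interaction was not tested. The interaction of ABA with SA at 24 h gave 0 of 5 calls (0.62% of all probe sets called by limma, 2386 with an unadjusted p under 0.05).

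From 3 h to 24 h the 5 genes rose under SA, 2 of them fell under ABA, AUR2 fell under both combinations, and none was called under JA. Under SA 5 of 5 genes rose (8.9% of all probe sets), by 2.15 ± 0.27 (KINESIN-12B, adjusted p = 0.000253) to 3.88 ± 0.94 (3xHMG-box2, adjusted p = 0.0117). AUR1 rose by 2.67 ± 0.85 with an adjusted p of 0.0471, which was above 0.05 under 15 of 36 alternatives, with values of up to 0.344. Without SA array 1 of 3 h, the adjusted p was also above 0.05 for AUR2 (0.0616), 3xHMG-box2 (0.153) and TOPII (0.0772), and without an SA array of 24 h it was above 0.05 for 3xHMG-box2 (0.0508 and 0.0871) and TOPII (0.0787, array 2). Under JA 0 of 5 were called (0.022% of all probe sets called by limma, 1186 with an unadjusted p under 0.05), with differences of -0.19 to 0.22. Under ABA 2 of 5 fell (1.22% of all probe sets), where AUR2 fell by 2.10 ± 0.44 (adjusted p = 0.0144) and KINESIN-12B fell by 1.35 ± 0.24 (adjusted p = 0.00511). Both were lost with the 2 groups fitted alone (0.0643 and 0.0614) and with array weights (0.0796 and 0.0590), while all 5 genes had arrays that did not overlap, as did 24.2% of all probe sets (3.33% were called in either direction). 3xHMG-box2 differed by -3.16 ± 0.86 (adjusted p = 0.0545) and TOPII by -2.32 ± 0.66 (adjusted p = 0.0648). Under ABA+SA 1 of 5 fell (9.62% of all probe sets), and under ABA+JA 1 of 5 (8.39%). Both times it was AUR2, which fell by 2.35 ± 0.48 (adjusted p = 0.00164) and fell by 2.36 ± 0.48 (adjusted p = 0.00217), kept under all 36 alternatives.

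The change of a response with time was tested as the difference between the effect at 24 h and the effect at 3 h. For ABA it was below 0 in 5 of 5 genes (4.12% of all probe sets). TOPII had a value of -5.52 ± 0.97 (adjusted p = 0.00292), 3xHMG-box2 of -5.79 ± 1.27 (0.0113), AUR2 of -4.58 ± 0.66 (0.000819), AUR1 of -4.22 ± 1.15 (0.0342) and KINESIN-12B of -3.35 ± 0.36 (9.43e-05). The 3xHMG-box2 call was lost without control array 1 of 3 h (0.0690), and the AUR1 call without any 1 of 6 arrays, with adjusted p-values of up to 0.155. For ABA+SA 2 of 5 genes were called (1.57% of all probe sets lower), AUR2 with -4.82 ± 0.68 (0.0011) and KINESIN-12B with -2.04 ± 0.38 (0.00605). For ABA+JA 2 of 5 were called (3.61%), AUR2 with -4.84 ± 0.68 (0.000634) and KINESIN-12B with -1.94 ± 0.38 (0.00478). The other 3 genes had values of -3.43 to -2.80 for ABA+SA and of -2.91 to -1.65 for ABA+JA. For SA and JA there were 0 of 5 calls each (0.0615% and 0.317% of all probe sets called by limma, 338 and 2874 with an unadjusted p under 0.05), with a lowest adjusted p of 0.0624 for KINESIN-12B under JA (-1.77 ± 0.38). The time effect in the controls enters all of these values.

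Because the controls themselves changed with time, each array was also placed on the axis from the 3 h control (0) to the 24 h control (1). The axis was taken over 2332 probe sets called between the controls, with the 5 genes left out. The 3 h SA arrays took places of -0.05 and -0.02 and the 24 h SA arrays 0.91 and 0.98, near the controls of their time. The 3 h ABA arrays took 0.56, 0.44 and 0.44 and the 24 h ABA arrays 0.35, 0.45 and 0.41. These places are close together, yet the mean of the 5 genes was 6.85, 7.07 and 7.11 on the 3 h arrays and 4.58, 5.04 and 4.60 on the 24 h arrays. ABA+SA arrays of 24 h were further along, at 0.61 and 0.70, with the low gene means of 4.18 and 4.01. The 24 h JA arrays stood apart from each other, at 0.01 and 0.61, with gene means of 4.49 and 6.15. The 24 h ABA+JA arrays were at 0.02 and 0.28, with gene means of 4.74 and 4.5. The part of the spread between the 2 JA arrays in the calls under JA was not tested beyond the values without array 1 given above. What the cells did between 3 h and 24 h without hormone was not measured here other than through these arrays.

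**Figure D4:**
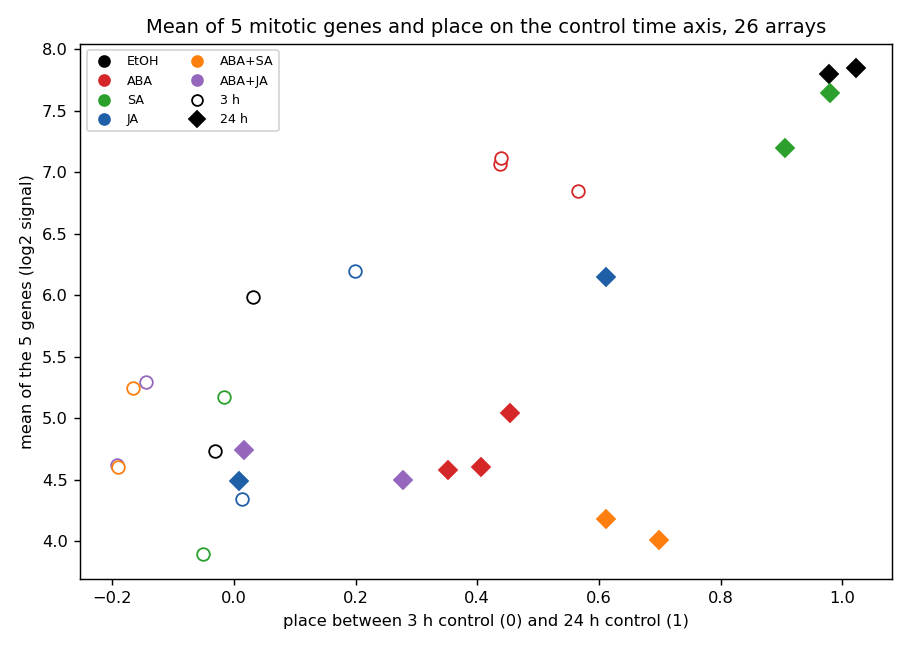
Place of each of 26 arrays between the 3 h control (0) and the 24 h control (1) over 2332 probe sets (horizontal axis), and the mean log2 signal of the 5 genes (vertical axis). Colours give the treatment, open circles 3 h and filled diamonds 24 h. ABA arrays of the 2 times share places of 0.35 to 0.56 but differ in the gene mean, and the 24 h ABA+SA arrays are far along the axis with gene means near 4.

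Other genes of mitosis were taken from 4 lists of 77 genes by function, made with earlier results of these data known. Of these genes, 15 had a probe set with 1 gene name in the annotation used and are called measured. Whether probe sets without such a name measure the other genes was not examined. The 15 measured genes were AUR3, KEU, AT2G28620 and AT4G14330 in the spindle and cytokinesis list, BUBR1, BUB3.1, BUB3.2, HBT and CDC27a in the spindle checkpoint and anaphase-promoting complex list, and HTR12, ATSMC2, 3xHMG-box1, AT3G54630, AT3G57060 and AT4G15890 in the chromosome list, while the list of mitotic cyclins and their kinases had none. From 3 h to 24 h in ethanol 9 of 15 rose (6.74% of all probe sets) and 0 fell, with a median change of 1.43 against -0.05 for all probe sets. 3xHMG-box1, the other member of the 3xHMG-box pair, rose by 2.83 ± 0.55 (adjusted p = 0.00549). HTR12, the centromeric histone H3, rose by 1.66 ± 0.26 (0.0018), and BUBR1, a gene of the spindle checkpoint, rose by 1.58 ± 0.34 (0.00916). KEU, which encodes a vesicle fusion protein of the cell plate, differed by 0.04 ± 0.21 (0.943).

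Under ABA at 3 h 3 of the 15 rose (5.73% of all probe sets) and 0 fell, with a median of 0.96 against 0.03 for all probe sets. They were HTR12 (1.07 ± 0.26, adjusted p = 0.0120), BUBR1 (1.39 ± 0.34, 0.0125) and 3xHMG-box1 (1.76 ± 0.55, 0.0429). AUR3, the third Aurora kinase gene, differed by 0.92 ± 0.50 (0.236). At 3 h 0 of 15 were called under SA (0.136% of all probe sets called by limma), JA (0.343%) and ABA+JA (22.4%, with 7787 at an unadjusted p under 0.05). Under ABA+SA by title 1 fell (9.06% of all probe sets), AT4G15890 (-1.35 ± 0.32, 0.00786), a call that the other labels would place under ABA+JA. AUR3 differed by -0.66 ± 0.50 (0.478) under ABA+SA at 3 h, when AUR2 rose.

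At 24 h 12 of the 15 fell under ABA (10.8% of all probe sets), 11 under ABA+SA (1.93%), 12 under ABA+JA (5.58%) and 7 under JA (2.57%), and 0 rose. The median changes of the 15 were -1.68, -1.58, -1.56 and -1.11, where the medians of all probe sets lay between -0.02 and 0.06. SA at 24 h gave 0 of 15 (0.352% of all probe sets called by limma). AUR3 fell by 2.17 ± 0.45 under ABA (adjusted p = 0.00343), 3xHMG-box1 by 2.77 ± 0.50 (0.00125), HTR12 by 1.83 ± 0.24 (8.18e-05) and BUB3.1, a spindle checkpoint protein gene, by 1.69 ± 0.31 (0.00126). 3xHMG-box1 also fell by 2.93 ± 0.55 under ABA+SA (0.00474) and by 3.33 ± 0.55 under ABA+JA (0.00185). The response to ABA changed with time in 11 of 15, all below 0 (4.12% of all probe sets), with a median of -2.65. Compared with ABA alone at 3 h, 9 of 15 were lower under ABA+SA (9.06% of all probe sets) and 7 under ABA+JA (10.5%), and 1, KEU, was higher under both (8.96% and 10.9% of all probe sets higher).

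**Figure D5:**
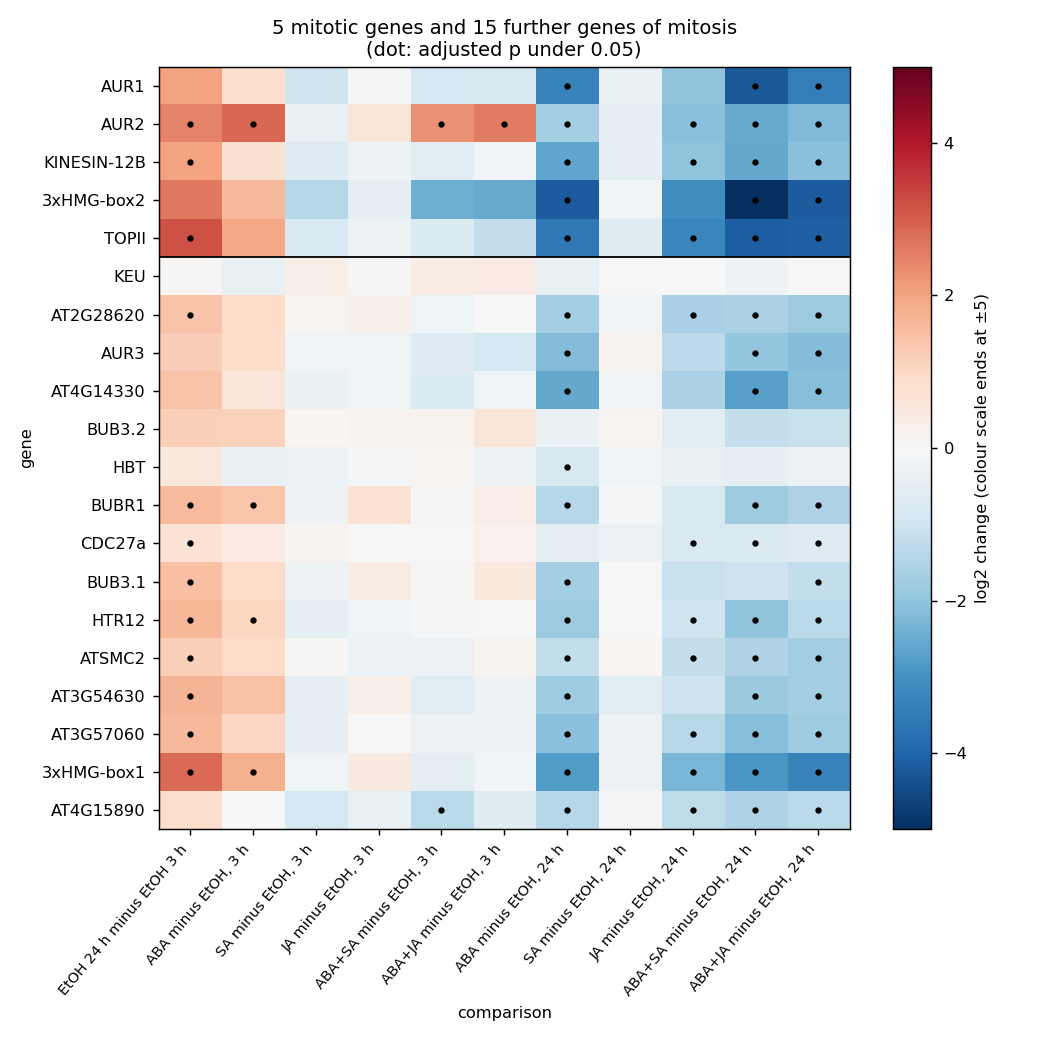
Log2 change in 11 comparisons (columns) of the 5 genes (above the line) and of 15 other genes of mitosis (below it), red for higher and blue for lower, with a dot where the adjusted p in limma is under 0.05. In the 24 h columns with ABA, 5 of 5 and 11 to 12 of 15 genes have a dot and are blue, and at 3 h AUR2 is the gene with a dot in all 3 columns with ABA.

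The genes whose 12 group means followed the mean standardised profile of the 5 most closely were sought among 13281 other genes, 1 probe set each. The highest Pearson correlations were those of AT5G60930 (0.990), AT3G57060 (0.987), NET3C (0.987), AT5G48310 (0.980) and AT3G20150 (0.978). The next were AT3G17680 (0.978), AT1G63100 (0.976), AT5G45700 (0.976), AT2G23530 (0.975) and AT5G01910 (0.974). All 10 were highest in the 24 h control and lowest under ABA+SA at 24 h. The profile they were chosen to follow has the same highest and lowest groups (1.75 and -1.04), so this follows from the choice. NET3C is named Networked 3C and is counted among the NET proteins, which bind actin. In all 87 genes had a correlation above 0.9, where the median over all genes was -0.04. Of the 15 listed genes of mitosis 9 were among them, from AT3G57060 at 0.987 to AT3G54630 at 0.912, with AUR3 at 0.927. The correlations share the same 12 groups and are given as a description.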

How the data were processed

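The 26 arrays are single-channel arrays of biotin-labelled RNA. The deposited table holds 1 log2 signal for each of 22746 probe sets and each array, made by the authors with RMA per the submitters' processing notes; that the scale is log2 was read from the range of the values, and no build is given in the sources used here. Probe sets were named through the platform annotation (13436 with 1 gene, 503 with several). All other probe sets were left without a gene name here. Groups follow the titles. A linear model over all 12 groups was fitted with limma 3.58.1 in R 4.3.3 (lmFit, eBayes), with replicates 2 and 3 of ABA at 3 h averaged and Benjamini-Hochberg adjustment over all probe sets in each of 33 comparisons, which gives 165 tests of the 5 genes. SE is that of the fit and SD that of the arrays. In data simulated for ABA against ethanol at 24 h over 22746 probe sets, 49% of changes of 1 log2 unit, 88% of 2 and 92% of 3 were recovered, with 6 false calls. The changed probe sets were drawn at random, and the treated group had 3 arrays. The rates were not taken for the 5 genes or for comparisons between groups of 2 arrays. Alternatives were array weights, a trended robust prior, quantile normalization, probe sets with no group mean of at least 5 left out, groups fitted alone, the other labels of the combined arrays, all 26 arrays separate, the replicate number as a block, and leaving out each array.

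The 5 genes and the 8 gene lists (131 genes, 21 of them measured) were chosen with earlier results of these data known. Genes named are the 5, measured genes of the lists, the 10 most correlated with the 5, and JRG21, UGT76B1 and LEA4-5, taken to check the hormone labels. The DNA replication and CDK inhibitor lists are given under the other observations; the D-type cyclin list, the MYB3R and E2F list and the mitotic cyclin list had 0 measured genes. No sequences were used here.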

Additional observations from a re-analysis of the deposited data

Results flagged for a closer look

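These results are listed because a test of the difference itself was past the threshold, between times or with another hormone; all were chosen from the 165 limma tests above. The effect of ABA at 24 h minus that at 3 h was -4.22 (adjusted p = 0.0342) for AUR1, -4.58 (0.000819) for AUR2, -3.35 (9.43e-05) for KINESIN-12B, -5.79 (0.0113) for 3xHMG-box2 and -5.52 (0.00292) for TOPII. The effect of ABA+SA at 24 h minus that at 3 h was -4.82 (0.0011) for AUR2 and -2.04 (0.00605) for KINESIN-12B. The same difference for ABA+JA was -4.84 (0.000634) for AUR2 and -1.94 (0.00478) for KINESIN-12B. The interaction of ABA with JA at 24 h was 2.56 (0.00125) for KINESIN-12B. For AUR2, the difference from the ethanol control was above 0 at 3 h and below 0 at 24 h in all 3 treatments with ABA. Each of these 6 differences was called. Those of the combinations also hold the effect of SA or JA, and ABA+JA against JA alone at 24 h gave 0 of 5 calls.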

How the results depend on the processing

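Of the 165 tests of the 5 genes, 56 were called, and 24 of the 56 were kept under every alternative. No value changed sign among called results; 94 values lost their call, 83 gained one and 5793 stayed on the same side of the threshold. When each array was left out in turn, calls ranged from 1 to 3 of 5 for control 24 h against 3 h, from 2 to 4 of 25 against control at 3 h and from 9 to 19 of 25 at 24 h. They ranged from 5 to 8 of 20 for combinations against single hormones at 3 h and from 1 to 5 of 20 at 24 h, from 6 to 11 of 25 for 24 h against 3 h within treated groups, from 7 to 13 of 25 for the change of a response with time and from 1 to 3 of 20 for interactions. A left-out array often leaves 1 array in a group, which is then assumed to vary like the others. Against control at 3 h, 3 calls became 5 with all 26 arrays separate. With array weights, the 8 calls of combinations against single hormones at 3 h became 4. The cause was not tested.

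Replicate numbers did not pair the arrays over all 12 groups: of 66 pairs of groups, 32 had deviations correlated above 0.1, with a range of -0.34 to 0.70. With the replicate block, calls against control at 3 h became 6 and interactions 3, with TOPII and 3xHMG-box2 added for ABA with JA at 3 h. Chosen after seeing the data, a replicate block within each time gave 6 calls against control at 3 h, 3 interactions, 5 for control 24 h against 3 h and 14 for the change of a response with time. It also called AUR1 and 3xHMG-box2 under JA at 24 h (adjusted p in limma of 0.0326 and 0.0160). In this fit the control difference between the times is read at replicate 1 of each time, with 2.71 for AUR1 and 3.24 for 3xHMG-box2. A block over the 3 h groups other than ABA alone called 3xHMG-box2 lower under ABA+SA (-2.42, adjusted p = 0.000187) and ABA+JA (-2.51, 0.000113), and in ABA+SA against SA (-1.003, 0.0309) and ABA+JA against JA (-2.04, 0.000516).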

Other observations

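Of 17 listed DNA replication genes 2 were measured, PRL, which encodes the helicase subunit MCM7, and ICU2, which encodes the catalytic subunit of DNA polymerase alpha. PRL rose by 1.92 ± 0.55 (adjusted p = 0.0349) and ICU2 by 2.17 ± 0.46 (0.00855) from 3 h to 24 h in ethanol, where 6.74% of all probe sets rose. Under ABA at 24 h PRL fell by 2.10 ± 0.50 (0.00798) and ICU2 fell by 2.20 ± 0.42 (0.00187), where 10.8% of all probe sets fell. Under ABA+SA and ABA+JA at 24 h neither was called, with differences of -1.29 to -1.08, where 1.93% and 5.58% of all probe sets fell.

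Of 16 listed cell cycle kinase inhibitor genes 4 were measured, SIM, AT1G08180, AT5G02420 and AT5G40460. AT5G02420 fell by 2.09 ± 0.62 (0.0421) from 3 h to 24 h in ethanol, and its correlation with the mean profile of the 5 mitotic genes over the 12 groups was -0.61. Under ABA at 3 h it differed by 1.22 ± 0.62 (0.205), above 0 like the 5 genes, and under both combinations at 3 h it rose when AUR2 also rose. It rose by 2.95 ± 0.57 under ABA at 24 h (0.00184), by 2.81 ± 0.62 under ABA+SA at 3 h (0.00496) and by 2.71 ± 0.62 under ABA+JA at 3 h (0.00458). It also rose by 3.24 ± 0.62 under ABA+SA (0.00518) and by 3.00 ± 0.62 under ABA+JA (0.00728) at 24 h. Of all probe sets, 6.55% rose under ABA+SA and 9.94% under ABA+JA at 3 h. Of the 22746 probe sets, 3984 were called in either direction under ABA at 24 h, 901 under ABA+SA and 1979 under ABA+JA. From 3 h to 24 h in ethanol 10.3% were called in either direction. SIM, AT1G08180 and AT5G40460 were not called in the 5 treatments against control at either time.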
